A study of Mus musculus with 6 samples.

Results

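The genes described are 10 enzymes and carriers of the cell's defence against peroxide: 5 peroxiredoxins (Prdx1, Prdx2, Prdx3, Prdx5 and Prdx6), Txn1, Txnrd1, Gpx1, Gpx4 and Sod1. They were chosen by symbol, and 10 of the 10 had a row among the 10755 genes of the table and passed the filter on low values. Polyadenylated RNA was sequenced from thymic natural killer T (NKT) cells of mice. Such cells carry a T cell receptor that hardly varies and recognises lipids on CD1d. The P1 fraction sorted here bound CD1d tetramers carrying PBS-57 and was negative for CD24, NK1.1 and CD44. The groups were 3 wild-type (WT) libraries and 3 UTX/JMJD3 double knockout (DKO) libraries of fresh cells, all on a background that mixes C57BL/6 with 129. In each genotype replicates 1 and 2 were female and replicate 3 was male. UTX is the product of Kdm6a and JMJD3 of Kdm6b, and both are demethylases of histone H3 that act on a repressive mark. The sources used here do not give the age of the mice, the way or the cells in which the genes were deleted, or the number of animals per library. The male libraries come from other animals than the female ones, but nothing says whether the 2 female libraries of a genotype do, so part of the spread behind each p-value may be technical.

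Peroxiredoxins reduce hydrogen peroxide with a reactive cysteine and are themselves reduced by thioredoxin, which thioredoxin reductase recharges with electrons from NADPH. Glutathione peroxidases do the same work with glutathione, and several of them, like thioredoxin reductase, carry selenocysteine in the active site. Superoxide dismutase makes the peroxide that both systems remove. Dividing T cells rely on these enzymes and on NADPH while their metabolism is high.

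Levels are RPKM (reads relative to gene length and to sequencing depth), which puts genes of different length on one scale. The annotation and counting behind them are not stated, so the order of different genes is only approximate. Implied totals ran from 5.0 M to 34.4 M reads per library, with replicate 1 of each genotype the deepest, and between 245 and 13392 reads lay behind each value of the 10 genes. Which exons were deleted is not known here and the values cover whole genes, so the targeted genes give no check of the labels. Kdm6a (RPKM 7.06, 4.86 and 1.94 in WT replicates 1 to 3, against 4.97, 5.28 and 3.53 in DKO replicates 1 to 3) and Kdm6b (1.62, 3.12 and 3.65, against 1.41, 0.978 and 2.59) both overlapped between genotypes. T and NKT cell markers (13 of 13 listed had a row) had a summed RPKM of 4949 to 5677 in WT and 5449 to 6515 in DKO. The largest terms of that sum were Trbc2 (1441 to 2188 over the 6 libraries) and Trbc1 (1213 to 1786). Some of the markers were close to 0 in single libraries. Zbtb16 was at 0.776 in DKO replicate 2 and at 1.91 to 5.35 elsewhere. Slamf1 was at 0.592 in WT replicate 3, at 0.925 in DKO replicate 3 and at 2.16 to 18.9 elsewhere. Within that list some markers stood apart between genotypes without overlap. Il2rb was at 15.8, 23.6 and 22.9 in WT, against 2.89, 7.50 and 10.7 in DKO, while Cd5 (152 to 182 in WT, 261 to 295 in DKO) and Trac (475 to 598 in WT, 759 to 896 in DKO) were higher in every DKO library. Of the genes of the sort gate, Klrb1c, which encodes NK1.1, was at 10.8, 3.51 and 5.59 in WT, against 0.784, 0.552 and 0.727 in DKO (adjusted p 0.215 by limma). Cd24a was at 11.2 and 21.6 in WT and DKO replicate 1 and at most 5.57 elsewhere. The part of these markers in the differences was not tested. Both replicate 1 libraries stood apart by markers of double-positive thymocytes, precursors that the sort should remove. The 6 of 8 such markers with a row summed to RPKM 489 in each replicate 1 library and to 29.4 to 55.1 in the other 4, where Dntt was at most 1.73. The part of such cells in the differences was not tested, and differences are also given without replicate 1 of both genotypes. Genes of cycling cells (13 of 13 with a row) summed to 846 to 1166 in WT and 261 to 500.1 in DKO, so they moved with genotype, and their part in the differences below was not tested. Of 8 erythroid markers 1 had a row, Hba-a2, at 21.1 in DKO replicate 1 and at most 3.27 elsewhere. No B cell or thymic epithelial marker had a row, and the macrophage and dendritic lists had 1 each, Fcer1g at 2.90 to 12.0 in WT and at most 0.10 in DKO, and H2-Ab1 at 0.17 to 9.64 and 0.66 to 13.7.

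Gpx1, which encodes the main cytosolic glutathione peroxidase, had the highest level of the 10 in WT cells at RPKM 562 ± 76.8 (SD, n = 3). Sod1, the cytosolic copper and zinc superoxide dismutase, followed at 344 ± 78.6, then Txn1 (thioredoxin) at 284 ± 32.2, Prdx1 at 242 ± 26.3 and Prdx6 at 224 ± 9.71. Prdx5 was at 124 ± 11.7 and Prdx2 at 113 ± 21.6, with Prdx3 at 58.9 ± 4.28, Gpx4 at 42.3 ± 8.11 and Txnrd1 (cytosolic thioredoxin reductase) at 21.9 ± 3.71. This order of means held in each of the 3 WT libraries taken singly, although the ranges of Sod1 and Txn1, Txn1 and Prdx1, Prdx1 and Prdx6, and Prdx5 and Prdx2 overlapped. In DKO the order changed at several places. Gpx1 stayed first on average, at 337 ± 26.5, but was above Sod1 (307 ± 57.6) in 2 of 3 libraries. Prdx6, at 262 ± 29.0, came next and lay above Prdx1 (188 ± 8.51) and Txn1 (181 ± 40.4) in its range, and Txn1 exceeded Prdx5 (172 ± 7.25) in 1 of 3 libraries. Prdx2 was next at 90.9 ± 16.1, Gpx4 at 51.8 ± 5.80 passed Prdx3 at 49.2 ± 17.8 in 2 of 3, and Txnrd1 was lowest at 12.8 ± 2.30. The 10 genes summed to RPKM 1759, 2174 and 2117 for WT replicates 1 to 3 and 1652, 1598 and 1706 for DKO replicates 1 to 3.

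**Figure D1:**
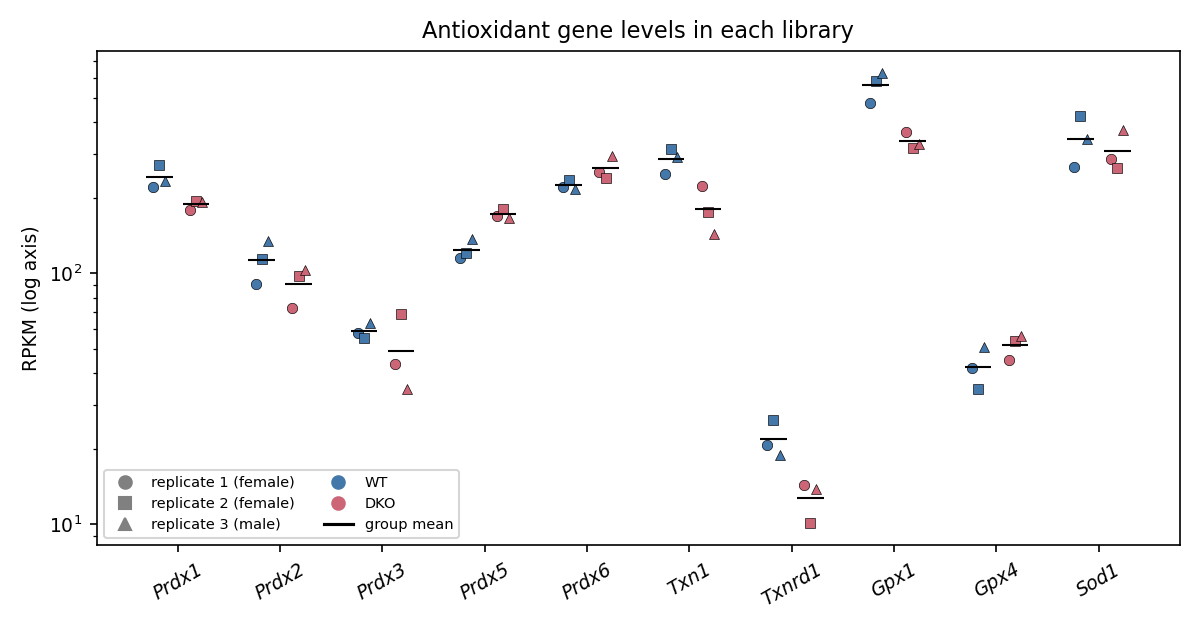
RPKM (log axis) of the 10 antioxidant genes in each WT (blue) and DKO (red) library, with symbols for replicates and bars for group means. Gpx1 lies at 477 to 627 in WT and 316 to 367 in DKO, and the groups also do not overlap for Txn1, Txnrd1, Prdx1, Prdx5 and Prdx6.

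The comparison of DKO with WT asks how the RNA of these genes differs in cells labelled as lacking both demethylases. Gpx1, Txn1, Txnrd1 and Prdx1 were lower in every DKO library than in any WT library, and Prdx5 and Prdx6 were higher, while Prdx2, Prdx3, Gpx4 and Sod1 overlapped. None of the 10 passed limma's moderated test at a Benjamini-Hochberg adjusted p of 0.05 over 10694 genes. There 9 genes or 0.0842% passed (0.0748% lower and 0.00935% higher). Voom on recovered read numbers called 0 of the 10, but it called 0 of all genes tested, so this count says nothing particular about the 10. At an unadjusted p of 0.05, 3 of the 10 were lower (8.14% of all genes) and 1 was higher (2.88%). Together these were 4 of 10, against 11.0% of all genes. The 10 genes were chosen with earlier results of these data known, so their shares beside those of all genes carry no test. Leaving out any 1 of the 6 libraries brought the 4 to between 1 and 2. Of the 10554 to 10632 genes then tested, 738 to 1434 had an unadjusted p under 0.05 by limma. The groups did not overlap with DKO lower in 4 of 10 (11.4% of all genes) and with DKO higher in 2 of 10 (5.71%). Without replicate 1 of both genotypes those counts were 5 (25.7% of all genes) and 3 (17.7%), with 2 of 10 at an unadjusted p of 0.05 (10.1%) and 0 at an adjusted p of 0.05 (0.00968%) by limma. Differences were below 0 for 7 of 10 (57.1% of all genes) and above 0 for 3 (42.9%). The median log2 difference was -0.31 over the 10 genes and -0.11 over all genes tested. In bulk RNA, fewer cells that express a gene and less RNA per cell cannot be told apart.

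Of the glutathione peroxidases, Gpx1 showed the smallest p of the 10 genes. It was at RPKM 477, 582 and 627 in WT replicates 1 to 3 and at 367, 316 and 328 in DKO replicates 1 to 3. The lowest WT library, replicate 1, lay above the highest DKO library, also replicate 1. The log2 difference was -0.73 ± 0.19 (SE, 95% interval -1.15 to -0.31), or 0.603 of the WT level on the scale of RPKM + 1, with an adjusted p of 0.196 by limma and an unadjusted p of 0.00297. It was -0.38 between the replicate 1 libraries and -0.91 over replicates 2 and 3 (adjusted p 0.325 by limma). Gpx4, the peroxidase that reduces lipid peroxides within membranes, was at 41.9, 34.5 and 50.7 in WT, against 45.2, 53.9 and 56.2 in DKO. WT replicate 3 lay above DKO replicate 1, so the groups overlapped. Its log2 difference was 0.30 ± 0.26 (SE, interval -0.29 to 0.88, adjusted p 0.708 by limma), and 0.16 without WT replicate 2. The ratio of Gpx1 to Gpx4 within a library, which library scaling cannot change, was 13.6 ± 2.93 for WT and 6.60 ± 1.31 for DKO (SD, n = 3 per genotype). This pair was chosen after its values were seen and carries no test.

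Thioredoxin and its reductase were both lower in each DKO library than in any WT library, but neither passed the adjusted threshold. Txn1 was at RPKM 249, 312 and 291 in WT, against 223, 176 and 143 in DKO. The groups did not overlap, and the replicate 1 libraries were the closest pair. The log2 difference was -0.67 ± 0.22 (SE, interval -1.17 to -0.17), or 0.630 of the WT level, with an adjusted p of 0.292 by limma. It was -0.16 between the replicate 1 libraries and -0.92 over replicates 2 and 3, where the adjusted p was 0.362. Txnrd1, the enzyme that reduces Txn1, was at 20.7, 26.04 and 18.9 in WT, against 14.3, 10.1 and 13.9 in DKO. All 3 DKO values lay below the WT range. Its log2 difference was -0.73 ± 0.33 (SE, interval -1.46 to -0.00), with an adjusted p of 0.451 by limma, and -0.85 without replicate 1.

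Among the peroxiredoxins the direction depended on the gene. Prdx1, the abundant cytosolic form, was at RPKM 219.9, 271 and 234 in WT, against 179, 194 and 193 in DKO. The groups did not overlap, but the interval of the log2 difference, -0.35 ± 0.19 (SE), ran from -0.78 to 0.07 (adjusted p 0.533 by limma). Prdx2, a second cytosolic form abundant in red cells, was at 91.0, 115 and 134 in WT, against 72.6, 97.2 and 103 in DKO. In both genotypes replicate 1 was the lowest, each DKO library was below the WT library of the same number, and the groups overlapped. Its log2 difference was -0.31 ± 0.25 (SE), with -0.18 when WT replicate 3 was left out and -0.16 when DKO replicate 1 was. Prdx3, the mitochondrial form, was at 57.8, 55.3 and 63.6 in WT, against 43.7, 69.1 and 34.7 in DKO. Its DKO libraries lay on both sides of the WT range, with a coefficient of variation of 36.3% against 7.3% in WT, and its log2 difference of -0.31 ± 0.30 (SE) became -0.096 without DKO replicate 3 and -0.58 without DKO replicate 2.

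Prdx5, which is found in mitochondria, peroxisomes and cytosol, was at RPKM 115, 120.1 and 137 in WT, against 169, 179.96 and 166 in DKO. All 3 DKO libraries exceeded the WT range. The log2 difference was 0.47 ± 0.20 (SE, interval 0.03 to 0.91), or 1.39 times the WT level, with an adjusted p of 0.418 by limma. It was 0.55 between the replicate 1 libraries and 0.43 over replicates 2 and 3. In the GENCODE M21 annotation the exons of Prdx5 share bases with Trmt112 on the other strand, and those of Prdx2 with Junb and Rnaseh2a, while the other 8 genes share none. Whether the counting used strand is not given in the sources used here, so reads of such neighbours cannot be told apart, and Trmt112 itself was at 32.1 to 52.1 in WT and 38.5 to 48.5 in DKO. Prdx6, which uses glutathione and also has phospholipase activity, was at 219.9, 236 and 218 in WT, against 252, 239 and 295 in DKO. The groups were separated by a small gap, from 236 to 239, and the log2 difference was 0.22 ± 0.19 (SE, interval -0.20 to 0.64, adjusted p 0.699 by limma), or 0.13 without DKO replicate 3. Near copies could share reads with the genes, and those of Prdx6 and Prdx2 with a row were looked up by name. Prdx6b and Prdx6-ps2 held 3.2% to 4.95% of the reads of Prdx6 and these copies together. Prdx2-rs3 held 0.73% to 1.53% of the corresponding reads of Prdx2. Copies of the other 8 genes, and copies without a row, were not searched for.

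Sod1 was at RPKM 266, 423 and 343 in WT, against 286, 264 and 373 in DKO. The ranges largely coincided, and WT replicate 2 was the highest of the 6 libraries. The log2 difference was -0.15 ± 0.23 (SE, interval -0.67 to 0.37, adjusted p 0.837 by limma), and it was 0.010 without WT replicate 2.

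**Figure D2:**
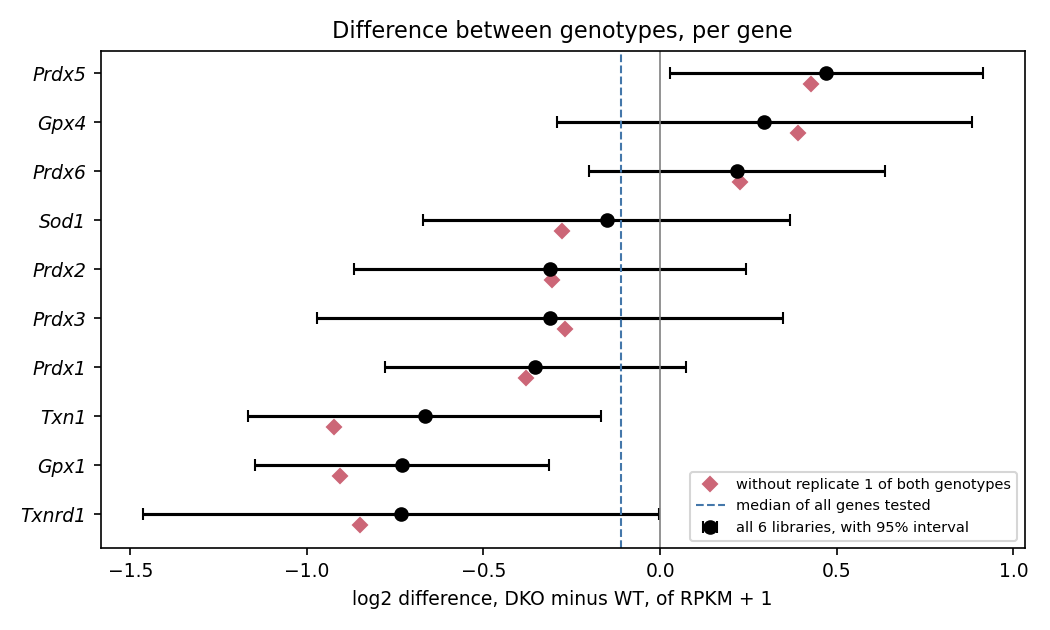
Log2 difference of RPKM + 1, DKO minus WT, for each of the 10 genes with its 95% interval over all 6 libraries (black) and its value without replicate 1 of both genotypes (diamonds); the dashed line is the median of all genes tested, -0.11. The intervals of Gpx1, Txn1 and Txnrd1 lie below 0 and that of Prdx5 above 0, before adjustment for the number of genes.

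Ratios between genes of one library are free of library scaling, and the following pairs were chosen after their values were seen, so they are given without a test. Gpx1 to Prdx5 was 4.16, 4.85 and 4.57 for WT replicates 1 to 3 and 2.17, 1.75 and 1.97 for DKO replicates 1 to 3. Prdx1 to Prdx6 was 1.00, 1.15 and 1.08 in WT, against 0.708, 0.810 and 0.656 in DKO. Both ratios were higher in each WT library than in any DKO library, which follows from pairing a gene seen lower with one seen higher. Txn1 to Txnip, the gene of a protein that binds and inhibits thioredoxin, was 6.08, 11.95 and 12.5 in WT, against 1.60, 1.00 and 1.60 in DKO. The replicate 1 WT library had the lowest WT value of this ratio and still lay above all DKO libraries. Txn1 to Txn2, the mitochondrial thioredoxin, overlapped between genotypes at 2.68, 4.24 and 4.27 in WT, against 2.60, 3.17 and 2.18 in DKO. Txnrd1 to Txnrd2, the mitochondrial reductase, also overlapped, at 6.41, 2.22 and 1.25 in WT, against 1.91, 19.6 and 3.11 in DKO.

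**Figure D3:**
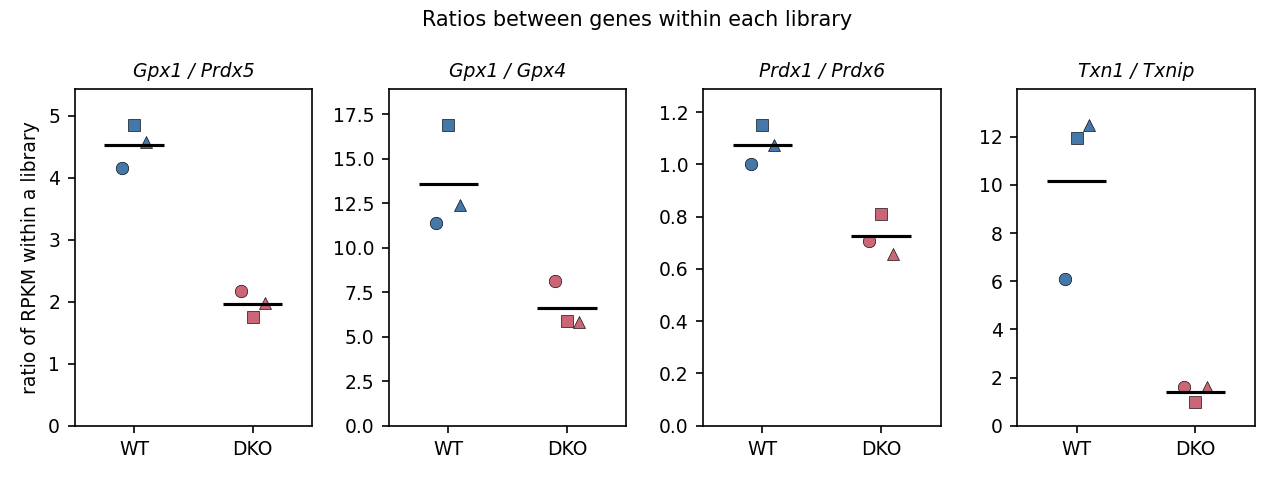
Ratio of RPKM within each library for Gpx1 to Prdx5, Gpx1 to Gpx4, Prdx1 to Prdx6 and Txn1 to Txnip, on linear axes from 0, with circles, squares and triangles for replicates 1, 2 and 3 and bars for group means. These 4, chosen after their values were seen, are higher in all WT than in all DKO libraries, for example 4.16 to 4.85 against 1.75 to 2.17 for Gpx1 to Prdx5.

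Genes of the thioredoxin and glutathione systems are known targets of the factor NRF2, which binds antioxidant response elements. The 250 bases before each RefSeq start (GRCm38.p6) were searched on both strands for the core of that element, TGACNNNGC, and 9 of the 10 genes had an entry, over 14 starts. The motif stood before 3 of those 9 genes, Prdx1, Txnrd1 and Sod1, where 11.52% of all 27018 genes had it, or in 3 of the 14 windows, where 10.16% of all 32841 had it. These 3 windows are shown with the motif in capitals, and the window of Gpx1, the gene with the smallest p, is shown beside them, where these letters are not found. All 4 lie on the plus strand and read 5′ to 3′ towards the start.
Prdx1, chr4:116685349-116685598: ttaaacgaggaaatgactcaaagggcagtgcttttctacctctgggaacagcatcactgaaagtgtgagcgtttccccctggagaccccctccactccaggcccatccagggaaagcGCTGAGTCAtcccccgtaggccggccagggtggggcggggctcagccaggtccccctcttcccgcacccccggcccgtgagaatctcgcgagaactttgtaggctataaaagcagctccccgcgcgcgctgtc
Txnrd1, chr10:82858956-82859205: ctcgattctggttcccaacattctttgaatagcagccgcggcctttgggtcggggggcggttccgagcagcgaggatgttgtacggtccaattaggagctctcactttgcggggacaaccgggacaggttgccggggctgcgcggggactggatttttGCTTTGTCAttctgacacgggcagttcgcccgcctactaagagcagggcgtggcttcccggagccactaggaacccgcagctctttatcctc
Sod1, chr16:90220512-90220761: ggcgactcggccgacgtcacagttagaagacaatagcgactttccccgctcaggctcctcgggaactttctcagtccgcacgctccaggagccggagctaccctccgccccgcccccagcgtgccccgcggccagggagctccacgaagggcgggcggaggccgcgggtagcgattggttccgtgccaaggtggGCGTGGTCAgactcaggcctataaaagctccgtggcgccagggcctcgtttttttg
Gpx1, chr9:108338830-108339079: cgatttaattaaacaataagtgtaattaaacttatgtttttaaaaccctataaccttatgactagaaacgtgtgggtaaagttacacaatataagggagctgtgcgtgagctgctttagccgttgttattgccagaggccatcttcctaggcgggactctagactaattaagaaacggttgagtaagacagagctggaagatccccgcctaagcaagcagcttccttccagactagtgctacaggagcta
The motif lies on the minus strand in all 3, so that the capitals read its reverse complement, beginning 133, 92 and 56 bases before the start in Prdx1, Txnrd1 and Sod1. In Prdx1 it overlaps TGANTCA, the core bound by AP-1. Txnrd1 has 3 listed starts, of which 1 holds the motif. The motif was thus found before genes whose levels did not overlap between genotypes (Prdx1, Txnrd1) and before 1 whose levels did (Sod1).

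The wider redox list held 88 genes, of which 59 had a row and were tested. By limma 0 of the 59 passed at an adjusted p of 0.05, and 0 by voom, which called 0 of all genes tested. By limma 5 were lower, while 3 were higher, at an unadjusted p of 0.05 (8.14% and 2.88% of all genes). By voom 11 of the 59 had an unadjusted p under 0.05, as did 1677 of all 10694 genes. The median log2 difference was -0.19, and groups did not overlap with DKO lower in 6 (11.4% of all genes) and higher in 4 (5.71%). The 6 tested genes listed under the supply of NADPH, the electron source of both systems, were below 0 in 6 of 6 (57.1% of all genes). Their median was -0.72 (-0.11 over all genes), and 3 were lower at an unadjusted p of 0.05 by limma (8.14% of all genes). Whether each of them makes NADPH in these cells was not tested. Me2, a mitochondrial malic enzyme, was at RPKM 68.8, 30.02 and 55.9 in WT, against 40.1, 15.3 and 21.2 in DKO (log2 difference -1.02 ± 0.42 SE, adjusted p 0.411 by limma), and its groups overlapped. Pgd, of the pentose phosphate pathway, was at 35.1, 39.9 and 42.6 in WT, against 21.7, 13.4 and 33.4 in DKO, so its groups did not overlap (adjusted p 0.417 by limma). Without replicate 1 of both genotypes the log2 differences of Me2 and Pgd were -1.14 and -0.93.

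Glutathione synthesis and use was mixed, where 10 of 16 tested genes lay below 0 (57.1% of all genes) around a median of -0.19. Slc3a2, the shared heavy chain of amino acid transporters that include the cystine carrier, was at RPKM 149, 106 and 111 in WT, against 81.2, 56.1 and 77.1 in DKO. The groups did not overlap, and the log2 difference was -0.76 ± 0.25 (SE, adjusted p 0.285 by limma). Mgst2, a microsomal glutathione transferase, went the other way, at 30.2, 44.6 and 47.5 in WT, against 85.3, 76.5 and 57.9 in DKO (log2 difference 0.84 ± 0.28 SE, adjusted p 0.292 by limma, and 0.52 without replicate 1). Gsr, which reduces oxidised glutathione, was low and overlapped, at 5.86 ± 2.13 in WT, against 8.03 ± 4.05 in DKO (SD, n = 3 per genotype).

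Among 17 other peroxiredoxin and thioredoxin genes the median was -0.17 (-0.11 over all genes). Of the 17, 1 had an unadjusted p under 0.05 (11.0% of all genes), Txnip, whose adjusted p was 0.0542 by limma. That gene was at RPKM 41.0, 26.1 and 23.3 in WT, against 140.02, 175 and 89.3 in DKO, a log2 difference of 2.11 ± 0.33 (SE), and it passed under 4 of the 18 alternatives (adjusted p 0.0168 to 0.319 over all 18, by limma). Sesn3, a sestrin that restrains growth signalling under stress, was at 14.2, 36.2 and 44.0 in WT, against 57.3, 51.6 and 46.7 in DKO. Its log2 difference was 0.84 ± 0.40 (SE) and 0.29 without replicate 1. Prdx4, the peroxiredoxin of the endoplasmic reticulum, was at 34.6, 37.3 and 25.5 in WT, against 17.2, 19.5 and 31.8 in DKO, overlapping through the male libraries. Txn2 also overlapped, at 78.3 ± 13.1 in WT, against 69.1 ± 15.5 in DKO (SD, n = 3 per genotype).

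Genes that handle superoxide and peroxide had a median of -0.34 over 6 tested. Park7, which encodes the redox-sensitive protein DJ-1, was at RPKM 139, 119 and 125 in WT, against 58.4, 105 and 56.9 in DKO. Every DKO library lay below the WT range (log2 difference -0.84 ± 0.28 SE, adjusted p 0.287 by limma). Sod2, the mitochondrial superoxide dismutase, was at 26.7, 51.6 and 56.4 in WT, against 39.4, 36.0 and 16.8 in DKO. Its groups overlapped through WT replicate 1, which lay below DKO replicates 1 and 2. Its log2 difference was -0.55 ± 0.41 (SE), with -1.10 without replicate 1 of both genotypes, -0.18 without DKO replicate 3 and -0.0705 by voom. Cat (catalase), at 33.1 ± 5.49 and 32.8 ± 7.996, and Ncf4, an oxidase subunit, at 55.2 ± 16.3 and 40.4 ± 11.1, overlapped too (SD, n = 3 per genotype).

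Of 14 listed genes of the NRF2 system and its targets, 6 had a row. Their median log2 difference was -0.01 over 6 tested (-0.11 over all genes), and 1 of the 6 lay below the median of all genes. Members with separate groups numbered 0 of 6, where 17.2% of all genes had them. A count of 0 among so few genes does not show that this list was unchanged. Nqo1, Hmox1, Mt1 and Mt2 were among the listed genes without a row, so the values say nothing about them. Nfe2l2, which encodes NRF2, was at RPKM 28.2 ± 5.96 in WT, against 33.5 ± 13.5 in DKO, and Ftl1, the ferritin light chain, at 373 ± 65.4 and 405 ± 79.5 (SD, n = 3 per genotype). For the insertion of selenocysteine, which Gpx1, Gpx4 and Txnrd1 need, 6 genes gave a median of 0.10. Of these, 4 lay above 0 (42.9% of all genes) and 2 below. The 2 below, Eefsec and Sephs1, had the smallest p by limma and are named for that. Eefsec, the elongation factor that delivers selenocysteine, was at 25.3, 25.3 and 29.1 in WT, against 23.8, 11.6 and 17.4 in DKO, without overlap (adjusted p 0.539 by limma). Sephs1 was at 10.03 ± 2.06 and 6.23 ± 2.23. Of the 2 tested methionine sulfoxide reductases, Msra was at 30.8 ± 14.0 and 23.7 ± 2.68, and Msrb2 at 20.1 ± 3.60 and 14.0 ± 6.39 (SD, n = 3 per genotype).

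**Figure D4:**
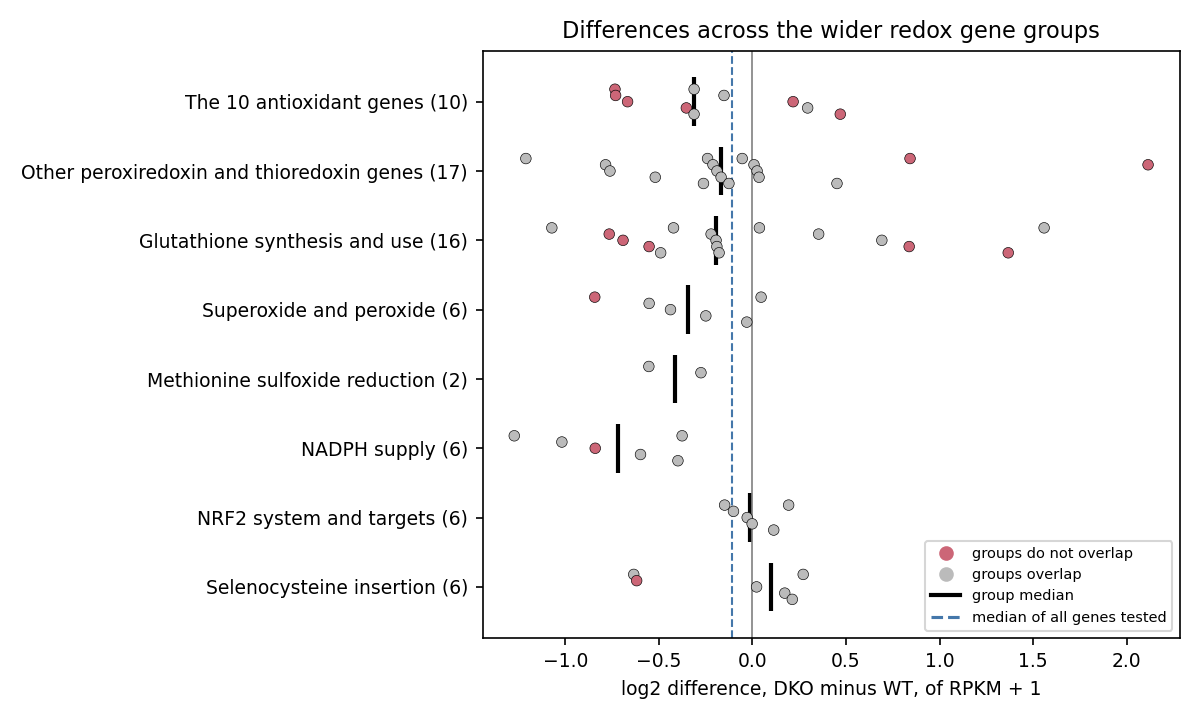
Log2 difference of RPKM + 1, DKO minus WT, for the 10 genes and for each group of the wider redox list (number tested in brackets); red points are genes whose groups do not overlap, black bars are medians and the dashed line is the median of all genes tested, -0.11. NADPH supply has the lowest median, -0.72, and Txnip is the point at 2.11.

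Sex was compared with genotype in the model, from 2 female libraries and 1 male library in each genotype. By limma 0 of the 10 genes differed at an adjusted p of 0.05 (0.00935% of all genes did) and 0 at an unadjusted p of 0.05 (3.52% of all genes). The smallest unadjusted p was 0.226, for Prdx2, which was higher in males by 0.34 on the log2 scale (interval -0.25 to 0.93). The interaction of genotype and sex, which asks whether the DKO difference differs between the sexes, also gave 0 of 10 by limma at either threshold (0% and 2.74% of all genes). With 1 male library per genotype these intervals were wide, and for Gpx1 the sex difference lay between -0.38 and 0.58.

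The mean log2(RPKM + 1) of the 10 genes was 6.96, 7.17 and 7.18 for WT replicates 1 to 3 and 6.85, 6.88 and 6.89 for DKO replicates 1 to 3. The genes whose pattern over the 6 libraries was most like this mean, among 6532 other genes with a mean RPKM of at least 10, were Tmed3, Gm10221, Ebna1bp2, Selenof and Sf3b6, with Pearson correlations of 0.984 to 0.972. These 6 points share the genotype split and the library depths, so the values describe a ranking and carry no test.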

How the data were processed

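Polyadenylated RNA of sorted cells was prepared by a published protocol and an indexed Illumina kit, per the labels' protocols. The authors deposited RPKM values for 10772 rows and 6 libraries, with gene lengths. The submitters' processing notes name Bowtie and mm9. Versions, annotation and counting are not stated there. In each row at least 2 libraries were above RPKM 3. The headers name 1 female pair as set 1, and it was taken as replicate 1, since the other female columns carry the number 2. The sample descriptions give both female DKO libraries the number 2, so which of them is replicate 1 rests on the titles and headers. The male library was numbered 3. RPKM multiplied by length came out as whole reads, within 0.05, for 99.6% to 100.0% of values, which gave the implied totals. Reads are not independent molecules.

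After 1 row per current symbol (GENCODE M21, highest mean) there were 10755 genes. The 10694 with RPKM of 1 or more in 3 or more libraries were tested by limma 3.58.1 (R 4.3.3) with a variance trend, on log2(RPKM + 1) without covariates. P-values were adjusted by Benjamini-Hochberg over all of them. Fold changes on that scale understate low genes. The script was tested on simulated data. The 10 genes and all lists were chosen with earlier results of these data known. The text names the 2 genes of smallest p per group of the wider list. By role it also names Txnip, Txn2, Prdx4, Sod2, Cat, Gsr and Srxn1, of which Srxn1 had no row among the deposited values. Python 3.11.15, pandas 2.3.3 and matplotlib 3.10.9 were used. Upstream sequences are from RefSeq (GRCm38.p6), another build than that of the values. Alternatives covered the pseudocount, filter, scaling, variance model, covariates, voom and left-out libraries.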

Additional observations from a re-analysis of the deposited data

Results flagged for a closer look

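Among the genes named above, Prdx4 and Ncf4 were singled out because of the order of their libraries. Both female DKO libraries lay below both female WT libraries while the male DKO library lay above the male WT library. Prdx4 and Ncf4 are neither the only nor the clearest cases in the wider list, where Gss, Idh2, Txndc9 and Nnt showed this order too. Gss was at RPKM 13.7 and 9.13 in WT females, against 0.681 and 2.94 in DKO females. In males it was at 7.19 in WT, against 18.9 in DKO (interaction 3.53), and the interaction of Idh2 was 1.98. For Prdx4 the signed log2 difference, DKO minus WT, was -0.97 and -0.90 in the female pairs and 0.31 in the male pair, an interaction of 1.24 (unadjusted interaction p 0.111, adjusted p 0.9997 by limma). For Ncf4 it was -0.10 and -1.31 in the female pairs and 0.10 in the male pair, an interaction of 0.80 (unadjusted interaction p 0.307, adjusted p 0.9997 by limma). With 1 male library per genotype the sexes were compared through single libraries.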

How the results depend on the processing

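Over 18 alternatives 9 of the 10 genes kept the sign of their difference, and 0 of 10 passed an adjusted p of 0.05 under any of them. The 9 calls over all genes became 24 with array weights, 0 with voom, 1 without replicate 1 of both genotypes and 0 to 13 with each library left out in turn, with 2 when WT replicate 1 was left out and 0 when WT replicate 2 or 3 was. The 4 genes at an unadjusted p of 0.05 became 2 without the variance trend, with array weights, with sex as a covariate and without replicate 1 of both genotypes. Over all genes 1146, 1317 and 1111 of 10694, and 1041 of 10329, had such a p in these fits, in that order. With any 1 library left out the 4 became 1 to 2, and 738 to 1434 of all genes tested had such a p. The median log2 difference of the 10 genes was -0.18 with quantile normalization and -0.21 with median log2 ratio scaling, which moved that of all genes from -0.11 to 0.01 and -0.01, and it ran from -0.37 to -0.21 with 1 library left out. For the wider list it was -0.10 with quantile normalization, -0.089 with median log2 ratio scaling, -0.12 without replicate 1 of both genotypes, and -0.29 to -0.16 with 1 library left out. Calls in the wider list became 1 (Txnip) with quantile normalization, array weights or sex as a covariate, and 0 to 1 with 1 library left out, the 1 being when DKO replicate 3 was. Cat was 0.063, 0.071 and 0.078 with quantile normalization, median log2 ratio scaling and array weights. With 1 library left out, log2 differences ran from -0.32 to 0.010 for Sod1 (above 0 when WT replicate 2 was left out), -0.17 to 0.18 for Cat, -0.59 to 0.051 for Msra (WT replicate 3), -0.11 to 0.36 for Nfe2l2 and -0.0285 to 0.25 for Ftl1 (both below 0 when DKO replicate 1 was). The cause was not tested. With the replicate block (females by number, males together) 9 genes and 0 of the 10 were called. By limma with this block 4 of the 10 had an unadjusted p under 0.05, as did 1597 of all 10694 genes. Deviations of same-numbered libraries correlated at 0.23, 0.15 and 0.08, each library best with its own number, which is a hint from the data and not the design. The sex and interaction comparisons gave 0 of 10 wherever they were run. They were not run with the replicate block or sex covariate, and the interaction could not be fitted without a male library or without replicate 1 of both genotypes.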
